A study of Mus musculus with 18 samples.

Results

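Loss of Nr2f6 and blockade of PD-L1 are separate ways of releasing T cells, and they were set side by side here in tumor-infiltrating lymphocytes (TILs) of B16-OVA melanoma. The members were chosen by sample label: 3 samples of Nr2f6-/- mice that received the control antibody IgG2b and 6 samples of wild-type mice that received the PD-L1 antibody (aPDL1), 9 of the 18 samples sequenced. All mice were of the C57BL/6 strain, 8 to 12 weeks old in the tumor experiments of the study, and the germline Nr2f6 deletion had been back-crossed 8 times. Each mouse carried a subcutaneous tumor grown from 500000 B16-OVA cells, a mouse melanoma line that expresses ovalbumin. From d3 on, 0.5 mg of anti-PD-L1 (clone 10F.9G2) or of its IgG2b control (LTF-2) was given repeatedly i.p., and tumors were taken at d14. The tumors were cut up and digested with collagenase and DNase. T cells were enriched with CD4 and CD8 beads, pooled and sorted for CD3, so that a value is an average over a mixed T cell population, in which fewer cells of a type and less RNA per cell cannot be told apart. The remaining samples, 3 wild-type IgG2b and 6 Nr2f6-/- aPDL1, were used for the common estimate of spread and to see on which side they lay. Genotype and antibody differed together between the groups compared, so this contrast alone does not separate them.

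NR2F6 is an orphan nuclear receptor that represses transcription in T cells and acts there as a brake on antigen-receptor responses, including the production of cytokines. PD-L1, on tumor and myeloid cells, engages the receptor PD-1 on T cells and dampens signaling from the T cell receptor, and an antibody against PD-L1 interrupts this contact. Signaling through the T cell receptor induces immediate early genes within a short time, together with feedback inhibitors that end the response. Whether such signaling lay behind any difference given here was not tested.

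Values are normalized counts (reads counted on a gene divided by 1 size factor per sample). Between 13963967 and 18609482 reads per sample lay behind them in the 9 samples compared. Differences are given on the scale log2(normalized count + 1), which understates changes of genes with few reads. A gene was called different at a Benjamini-Hochberg adjusted p under 0.05 in limma, adjusted over all 11992 genes tested. The labels do not say whether each sample is 1 mouse, so p-values measure the spread between these samples. The 3 Nr2f6-/- IgG2b samples and wild-type aPDL1 replicates 1 to 3 carry library numbers within the run 28 to 39, and wild-type aPDL1 replicates 4 to 6 within the run 43 to 48. From the gap in numbering, these runs are called the first and second library series here. The labels name no series or batch. Pearson's r across genes had a median of 0.820 between Nr2f6-/- IgG2b samples, 0.800 between wild-type aPDL1 samples and 0.799 between samples of the different groups. The T cell markers that define the sort were abundant: Cd3e had 9499, 8617 and 11546 normalized counts in the Nr2f6-/- IgG2b samples and 8205 to 13154 with a median of 11290.3 in wild-type aPDL1.

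Nr2f6 itself, at chr8:71374123-71381960 on the minus strand (GRCm38), had 0 reads in all 3 Nr2f6-/- IgG2b samples and in all 9 Nr2f6-/- samples. In wild-type aPDL1 samples it had 90.4 ± 63.9 (SD, n = 6) normalized counts, with a lowest sample of 26.1 and a highest of 201. Set against the level of 3 reads in a library, the transcript was at least 28.9-fold lower in Nr2f6-/- IgG2b TILs. The fitted difference was −6.19 (SE 1.30, adjusted p = 0.0218), and the exact permutation test (two-sided) over 84 arrangements gave p = 0.0119, the smallest that 3 against 6 samples allow. Every label of genotype was thus matched by its transcript. In limma the adjusted p ranged from 0.0865 to 0.101 when 1 of the Nr2f6-/- IgG2b samples was left out.

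Between Nr2f6-/- IgG2b and wild-type aPDL1, 55 of 11992 genes differed (0.459% of the genes tested), 36 higher (0.300%) and 19 lower (0.158%) in the Nr2f6-/- IgG2b samples. The higher genes included the immediate early and signaling genes Rgs2, Dusp1, Nr4a1 and Fosl2, and by genes of antigen-presenting and myeloid cells such as H2-Aa, H2-Ab1, Lyz2 and Ccl6. The lower genes were a mixed group that held Nr2f6, the chaperone gene Clgn and the cytoskeletal gene Tpm4. For 51 of the 55 called genes the samples were fully separated between the groups, against 643 genes (5.36%) over all genes tested. Because the genes were called on the difference between these same samples, their separation is a description and adds no separate evidence. With edgeR 46 genes were called (35 higher) and with DESeq2 281 (112 higher). At an unadjusted p under 0.05, 1338 genes (11.2%) passed, 732 higher and 606 lower, and the median difference over all genes was 0.04. Among the samples of the first library series alone, 36 genes were called, 26 of them among the 55, and all 55 kept their sign. The count fell to between 20 and 27 without any 1 of the 3 Nr2f6-/- IgG2b samples, and to 33 or 36 without wild-type aPDL1 replicate 2 or 6.

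The largest increases were found in genes with few or no reads in wild-type aPDL1 samples, and most of these calls depended on the settings. Tppp3, which encodes a tubulin polymerization-promoting protein, had 68.5, 299 and 376 normalized counts in Nr2f6-/- IgG2b samples, and 5 of 6 wild-type aPDL1 samples were at 0 with 6.27 in the other (log2 difference 7.16, SE 1.66, adjusted p = 0.0441). Dhrs3, a retinaldehyde reductase gene, had 142, 251 and 388 against 0 to 37 with a median of 0.522 (log2 difference 6.69, SE 1.53, adjusted p = 0.041). Stxbp6, which encodes a SNARE-binding protein, had 130.3, 91.4 and 154 against 0 to 16.3 with a median of 0 (log2 difference 6.26, SE 1.46, adjusted p = 0.0463). In each of these genes every Nr2f6-/- IgG2b sample lay above every wild-type aPDL1 sample, but they differed in the other groups. Tppp3 and Dhrs3 were also expressed in wild-type IgG2b TILs, at 186, 171 and 415 and at 284, 312 and 176 normalized counts, whereas Stxbp6 was found in 1 of 3 wild-type IgG2b samples, at 64.6. Cd40, the costimulatory receptor of antigen-presenting cells, had 175, 61.2 and 73.9 against 0 to 3.13 with a median of 0.510 (log2 difference 5.87, SE 1.39, adjusted p = 0.0485) and was again present in all 3 wild-type IgG2b samples. In Nr2f6-/- aPDL1 samples Tppp3 reached 104, 119 and 40 in 3 of 6 and was at 0 in the others. Tppp3 lost its call in 15 of 23 alternatives, Dhrs3 in 18 of 23, and Stxbp6 and Cd40 in 18 of 22 each. In the first library series alone their adjusted p was 0.124 for Tppp3, 0.0621 for Dhrs3, 0.219 for Stxbp6 and 0.179 for Cd40.

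Small nuclear and nucleolar RNA genes also stood among the increases. Gm24497, annotated as a small nuclear RNA gene, had 0 reads in all 6 wild-type aPDL1 samples and 232, 122 and 61.4 normalized counts in Nr2f6-/- IgG2b samples, at least 44.2-fold higher when the level of 3 reads per library is taken for the former (adjusted p = 0.00894). All 12 samples outside the wild-type aPDL1 group held reads of Gm24497. Gm24265, a gene of the same class, had 1088, 491 and 987 against 91.0 to 266 with a median of 102 (log2 difference 2.78, SE 0.44, adjusted p = 9.94e-04), and Snord118, the U8 small nucleolar RNA, had 1885, 1206 and 1215 against 64 to 611 with a median of 426 (log2 difference 2.14, SE 0.48, adjusted p = 0.0385). Such RNAs occur in near-identical copies and mostly lack a poly(A) tail, so their counts in a 3′ mRNA library are uncertain.

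**Figure D1:**
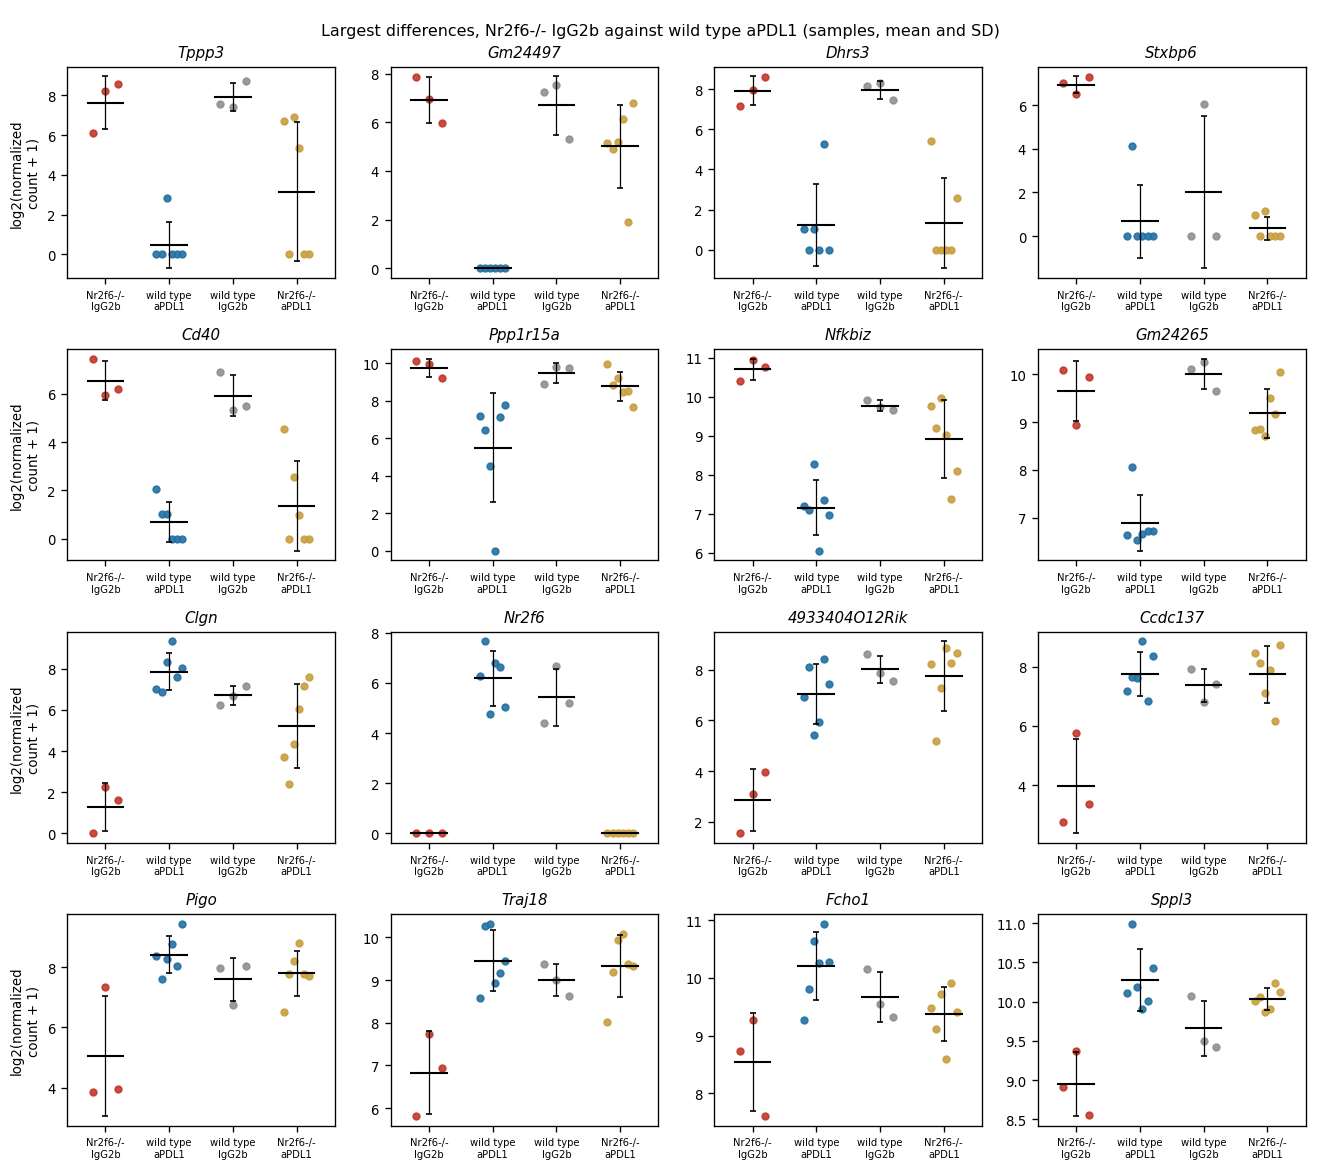
The 8 largest increases (upper 8 panels) and 8 largest decreases (lower 8 panels) among called genes whose Nr2f6-/- IgG2b and wild-type aPDL1 samples did not overlap, as log2(normalized count + 1) on the vertical axis. Each point is a sample of the 4 groups, and black bars give the mean and SD. Nr2f6 is at 0 in all 9 Nr2f6-/- samples, and Gm24497 is at 0 in all 6 wild-type aPDL1 samples and in none of the others.

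Of the 10 tested RGS proteins and GTPase regulators, limma, edgeR and DESeq2 each called 2, Rgs2 and Gem, both higher, and the median difference of the list was 0.22. Over all 11992 genes tested, limma called 0.459%, edgeR 46 genes and DESeq2 281 genes. Rgs2, which accelerates GTP hydrolysis by G-protein alpha subunits, had 16714, 16245 and 12432 normalized counts in Nr2f6-/- IgG2b samples and 2219 to 3232 with a median of 2751 in wild-type aPDL1, 5.61-fold higher (log2 difference 2.49, SE 0.28, adjusted p = 7.99e-06). All 12 other samples of the series lay above the highest wild-type aPDL1 sample for Rgs2, including Nr2f6-/- aPDL1 with 3566 to 13072 with a median of 11959.9. Dusp1, a phosphatase that switches off MAP kinases, had 7427, 8860.4 and 7365 against 1642 to 3089 with a median of 1938 (log2 difference 1.94, SE 0.22, adjusted p = 7.99e-06), and here every Nr2f6-/- IgG2b sample lay above all 15 other samples. These genes had the smallest adjusted p of the comparison.

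Further called genes of signaling pathways are given one by one, and of these only Gem belonged to a list. Tnfaip3, encoding A20, an inhibitor of NF-kB, had 3811, 5086 and 3751 against 295 to 1175 with a median of 879.7 (log2 difference 2.54, SE 0.38, adjusted p = 3.80e-04). Nfkbiz, which encodes the atypical IkB protein IkB-zeta, had 1349.9, 1959 and 1717 against 65.0 to 305 with a median of 140.4 (log2 difference 3.54, SE 0.50, adjusted p = 2.13e-04). For both, the Nr2f6-/- IgG2b samples stood above all others of the series. Socs3, which restrains JAK-STAT signaling, had 1505, 1660.3 and 2397 against 245 to 811 with a median of 444 (log2 difference 2.01, SE 0.40, adjusted p = 0.0121). Ppp1r15a, whose product recruits a phosphatase to the translation factor eIF2-alpha, had 1113, 994 and 592 against 0 to 218 with a median of 113 (log2 difference 4.25, SE 1.01, adjusted p = 0.0485), with 1 wild-type aPDL1 sample at 0. Gem, a small GTP-binding protein gene that was listed with the RGS genes, had 1115, 1937 and 1143 against 321 to 629 with a median of 450.4 (log2 difference 1.65, SE 0.33, adjusted p = 0.0121). None of these genes showed overlapping groups.

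Of the 14 tested AP-1 and immediate early genes limma called 3, all higher, beside 0.459% of all genes tested, while edgeR called 4 (Fos added) and DESeq2 6 (Fos, Fosb and Egr1 added). In limma 13 of 14 lay above 0 with a median difference of 1.30, against 0.04 over all genes tested. Fosl2, a FOS-related subunit of AP-1, had 5362, 10094 and 5956 against 1107 to 2164 with a median of 1459 (log2 difference 2.21, SE 0.30, adjusted p = 1.56e-04). Junb had 21886, 18031 and 17094 against 2505 to 9618 with a median of 5013 (log2 difference 1.94, SE 0.40, adjusted p = 0.017) and Jun had 1332, 1257 and 632 against 269 to 464 with a median of 344 (log2 difference 1.55, SE 0.37, adjusted p = 0.0485). Each of these AP-1 genes was separated between the groups without overlap. Members that did not pass in limma included Fos with a difference of 2.02 (adjusted p = 0.0768), Fosb with 5.42 (adjusted p = 0.0619), Atf3 with 6.80 (adjusted p = 0.097), Egr1 with 1.06 (adjusted p = 0.0568) and Batf, the single member below 0, with −1.25 (adjusted p = 0.138). At an unadjusted p under 0.05, 9 members were higher and 1 was lower, where 11.2% of all genes tested passed in either direction.

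Among the 15 exhaustion and effector transcription factors limma called 2, beside 0.459% of all genes tested, while edgeR called 1 (Nr4a1) and DESeq2 3 (Nr4a3 added). Nr4a1, an orphan nuclear receptor induced by T cell receptor signaling, had 7468, 7358 and 5549 against 851 to 1985 with a median of 1382 (log2 difference 2.27, SE 0.32, adjusted p = 2.13e-04), with no overlap. Bhlhe40, a basic helix-loop-helix factor that promotes effector cytokines, had 6811, 8931 and 5770.5 against 1625 to 5936 with a median of 2919 (log2 difference 1.28, SE 0.29, adjusted p = 0.041), where the highest wild-type aPDL1 sample exceeded the lowest Nr2f6-/- IgG2b sample. In limma the related receptors Nr4a2 and Nr4a3 differed by 0.72 (adjusted p = 0.438) and by 1.42 (adjusted p = 0.145). Tox, a regulator of exhaustion, differed by 0.01 (adjusted p = 0.991), with 5907 ± 1209.9 (SD, n = 3) normalized counts in Nr2f6-/- IgG2b and 5928 ± 1596 (SD, n = 6) in wild-type aPDL1. The median difference of this list was 0.07, close to the median of all genes.

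**Figure D2:**
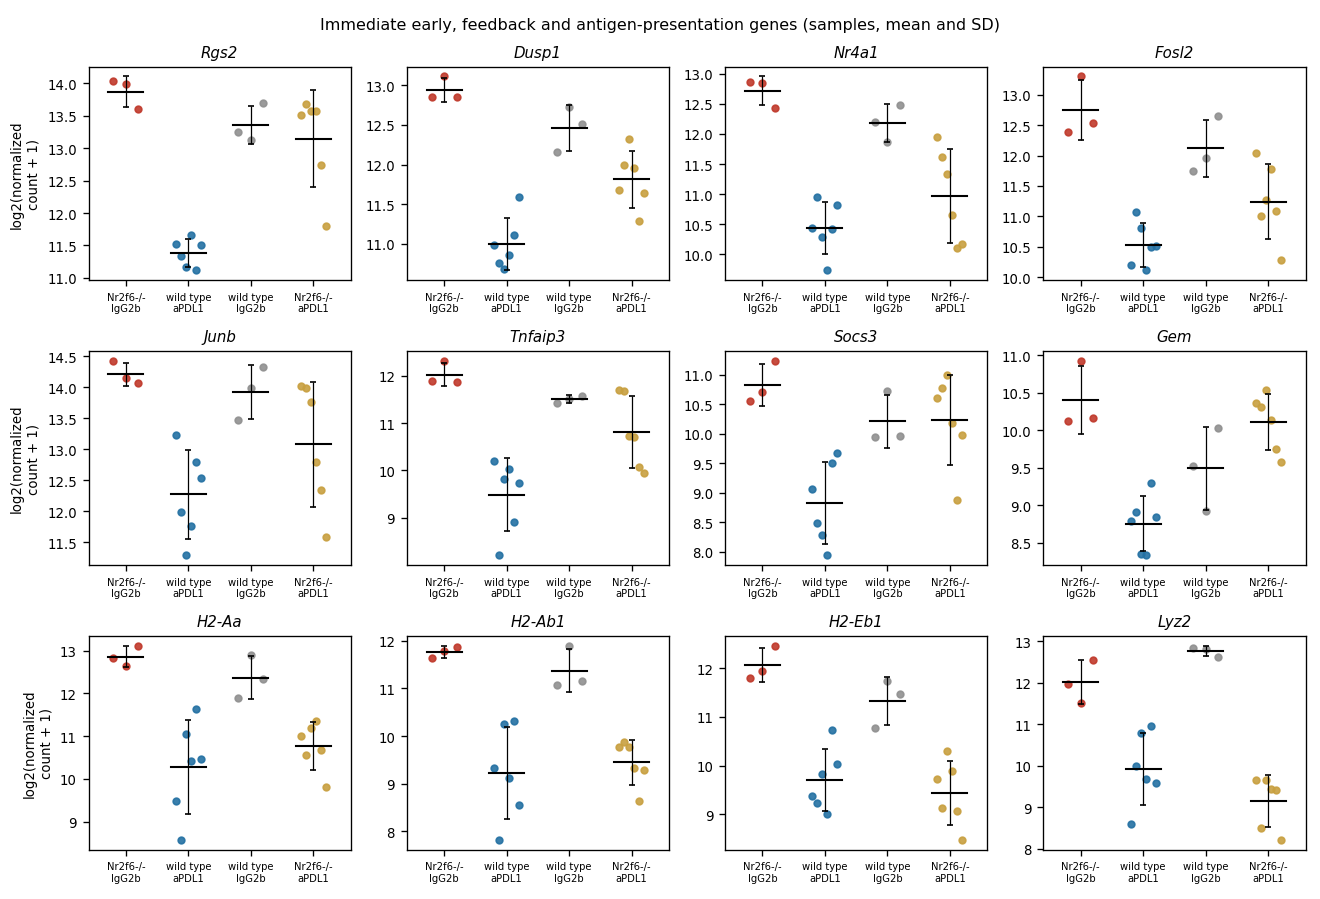
Immediate early genes, feedback inhibitors and genes of antigen-presenting and myeloid cells, as log2(normalized count + 1) on the vertical axis of each panel. Each point is a sample, and black bars give the mean and SD of the 4 groups. For all 12 genes the 3 Nr2f6-/- IgG2b samples lie above the 6 wild-type aPDL1 samples, and Rgs2 is the gene for which wild-type aPDL1 lies below all 12 others.

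Cyclic AMP acts on transcription through CREB family factors, which bind the cyclic AMP response element (CRE). The start site regions of the called genes were searched, on both strands, for TGACGTCA (CRE) and its short form TGACG, which also lies within each CRE. RefSeq windows of 300 bases (250 before to 50 after the start, GRCm38.p6) were found for 25 of the 36 higher and 14 of the 19 lower genes. The full CRE was found in 3 of the 25 higher genes (12%: Ppp1r15a, H2-Aa and Dusp1) and in 1 of the 14 lower genes (7.14%: Ddx28), against 3.78% of the 8826 tested genes with a window and 2.03% of all 27025. The short form was found in 44% of the higher genes, 35.7% of the lower and 36.5% of the tested genes. Searched in the same way, the AP-1 motif TGANTCA was present in 2 higher genes (8%; Tnfaip3 and Ccl9) and in 6.10% of tested genes, and the nuclear receptor element AGGTCA in 4 higher genes (16%; Ppp1r15a, Ccl6, H2-Eb1 and Pnrc1), in 1 lower gene (Tpm4) and in 14.7% of tested genes.

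The 220 bases before the start site are printed for the higher genes with a full CRE and, for comparison, for Rgs2 and Nr4a1, which have the short form alone. Capitals mark CRE and short form letters, and all run 5′ to 3′ on the strand of the gene. They lie at chr17:26508473-26508692 (minus) for Dusp1, chr7:45526269-45526488 (minus) for Ppp1r15a, chr17:34287824-34288043 (minus) for H2-Aa, chr1:144004150-144004369 (minus) for Rgs2 and chr15:101266626-101266845 (plus) for Nr4a1.
Dusp1: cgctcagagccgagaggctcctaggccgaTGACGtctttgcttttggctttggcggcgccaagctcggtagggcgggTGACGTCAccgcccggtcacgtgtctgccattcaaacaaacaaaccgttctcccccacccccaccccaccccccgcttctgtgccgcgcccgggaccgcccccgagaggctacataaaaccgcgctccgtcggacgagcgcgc
Ppp1r15a: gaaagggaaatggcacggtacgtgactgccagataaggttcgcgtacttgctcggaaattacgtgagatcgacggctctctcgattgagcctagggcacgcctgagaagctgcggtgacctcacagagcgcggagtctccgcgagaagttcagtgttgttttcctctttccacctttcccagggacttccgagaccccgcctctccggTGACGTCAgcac
H2-Aa: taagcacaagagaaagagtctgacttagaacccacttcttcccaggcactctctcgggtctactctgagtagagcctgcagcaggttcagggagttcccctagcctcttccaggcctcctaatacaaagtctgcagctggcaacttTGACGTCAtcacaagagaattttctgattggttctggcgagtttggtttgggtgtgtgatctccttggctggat
Rgs2: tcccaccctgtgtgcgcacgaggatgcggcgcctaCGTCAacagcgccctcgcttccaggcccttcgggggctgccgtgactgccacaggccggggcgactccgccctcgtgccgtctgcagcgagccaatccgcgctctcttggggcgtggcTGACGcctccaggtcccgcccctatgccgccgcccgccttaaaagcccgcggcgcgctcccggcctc
Nr4a1: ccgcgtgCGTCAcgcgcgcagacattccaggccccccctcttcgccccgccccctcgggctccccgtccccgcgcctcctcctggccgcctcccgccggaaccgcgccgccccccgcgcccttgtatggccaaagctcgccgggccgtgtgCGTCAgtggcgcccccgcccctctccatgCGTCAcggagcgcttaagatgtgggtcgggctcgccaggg
Dusp1 had 1 CRE and 1 further short form, Ppp1r15a and H2-Aa had 1 CRE each, Rgs2 had the short form 2 times and Nr4a1 had it 3 times. A match to these letters is a description of the sequence and was not tied to binding of any factor. Limma called 0 of the 14 tested cyclic AMP signaling genes, and a response to cyclic AMP was not tested.

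Genes of MHC class II, by which antigen-presenting cells display peptides to CD4+ T cells, were higher in Nr2f6-/- IgG2b samples. H2-Aa had 7269, 6341 and 8843 against 379 to 3196 with a median of 1383 in wild-type aPDL1 (log2 difference 2.59, SE 0.41, adjusted p = 9.94e-04). H2-Ab1 had 3175, 3536 and 3754 against 225 to 1269 with a median of 598 (log2 difference 2.53, SE 0.40, adjusted p = 8.23e-04) and H2-Eb1 had 3536, 3921 and 5625 against 512 to 1697 with a median of 785 (log2 difference 2.36, SE 0.36, adjusted p = 6.42e-04). All 3 genes were separated without overlap, and so was Cd74, the invariant chain that guides class II molecules to their peptides, with 1052, 949.8 and 1323 against 146 to 443 with a median of 262 (log2 difference 2.09, SE 0.47, adjusted p = 0.0385). These were the 4 called members of the 12 dendritic cell markers tested, beside 0.459% of all genes tested. The median difference of the list was 2.0, with 11 of 12 above 0. At an unadjusted p under 0.05, 6 members were higher, where 11.2% of all genes tested passed in either direction. The other members were Cd209a at 5.18 (adjusted p = 0.182), Batf3 at 2.74 (adjusted p = 0.584), Siglech at 1.91 (adjusted p = 0.746), Ccr7 at 1.14 (adjusted p = 0.349), Zbtb46 at 1.14 (adjusted p = 0.835), Flt3 at 0.72 (adjusted p = 0.928), Itgax at 0.70 (adjusted p = 0.821) and Xcr1, the single member below 0, at −2.22 (adjusted p = 0.643).

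Macrophage and monocyte genes lay on the same side. Lyz2, lysozyme, had 4008, 2925 and 6005 against 383 to 1979 with a median of 920 (log2 difference 2.08, SE 0.39, adjusted p = 0.00623) and was the 1 called gene of 19 tested macrophage markers, all 19 of which lay above 0 with a median difference of 2.54. At an unadjusted p under 0.05, 12 of the 19 were higher. Over all genes tested, 0.459% were called and 11.2% passed this unadjusted p in either direction. Apoe, C1qa and Csf1r, which mark macrophages, differed by 3.31 (adjusted p = 0.237), 2.24 (adjusted p = 0.431) and 2.44 (adjusted p = 0.491). Outside the marker list, the myeloid chemokine Ccl6 had 2505, 3536 and 4733 against 249.8 to 904 with a median of 557 (log2 difference 2.75, SE 0.51, adjusted p = 0.00623), its neighbor Ccl9 had 1191, 2568 and 1325 against 144 to 850.2 with a median of 479 (log2 difference 1.86, SE 0.41, adjusted p = 0.0323), and Fcer1g, the signaling chain of Fc receptors, had 1672, 2165 and 2215 against 434 to 1016 with a median of 628 (log2 difference 1.65, SE 0.34, adjusted p = 0.017). All of these were free of overlap between the groups.

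The summed level of the 20 macrophage markers was 11515 to 15720 normalized counts in Nr2f6-/- IgG2b samples and 2281 to 7911 in wild-type aPDL1 samples, a ratio of medians of 5.37. The other IgG2b group reached 20160 to 24164 and the other aPDL1 group 1240 to 3289. The 13 dendritic cell markers summed to 16357 to 22011 against 2546 to 7285. Most of this sum came from the class II genes called above. H2-Aa, H2-Ab1 and H2-Eb1 had means of 7484, 3489 and 4361 normalized counts against 1528, 714 and 904. The sum thus restates their calls and adds no separate evidence. The 15 T cell identity genes summed to 131830 to 138870 against 114010 to 166660, with overlap. The 12 melanocyte markers, which mark the tumor cells, summed to 1739 to 2804 against 2208 to 9255, also with overlap but with a ratio of medians of 0.410. Of the 11 melanocyte markers tested, 8 lay below 0 with a median difference of −1.40. At an unadjusted p under 0.05, 4 were lower and 1 was higher, where 11.2% of all genes tested passed in either direction. Limma and edgeR called 0 of them and DESeq2 called 1, Sox10, lower. The part of tumor cell transcripts in the lower genes was not tested. Neutrophil, platelet, B cell, NK cell, fibroblast and erythroid marker sums overlapped between the groups, with ratios of medians from 0.423 to 1.31. One macrophage marker of 20 was at 0 in all wild-type aPDL1 samples and none in all Nr2f6-/- IgG2b samples.

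With the macrophage marker mean of each sample as a covariate, an alternative chosen after the data were seen, limma called 0 genes, while 807 genes passed an unadjusted p under 0.05 and all 55 kept their sign. The marker mean did not overlap between the groups compared, at 8.35 to 8.81 on the log2 scale against 4.25 to 7.54. The estimates moved unequally, and the genes given here were chosen after their values were seen. Some became larger, such as those of Gm24265 (2.78 and 3.69), Slc3a2 (1.45 and 2.07) and Cd48 (0.89 and 1.12). Those of the class II genes became smaller, from 2.59 to 0.86 for H2-Aa, from 2.53 to 0.94 for H2-Ab1 and from 2.36 to 1.17 for H2-Eb1. Those of Dusp1 (1.94 and 1.96, adjusted p = 0.0661), Rgs2 (2.49 and 2.23, adjusted p = 0.0981), Nr4a1 (2.27 and 1.96, adjusted p = 0.397) and Fosl2 (2.21 and 1.86, adjusted p = 0.362) stayed closer to their values without it than those of Ppp1r15a (4.25 and 2.20), Junb (1.94 and 0.80), Nfkbiz (3.54 and 2.52) and Tnfaip3 (2.54 and 1.98). The Nr2f6-/- aPDL1 samples had macrophage sums of 1240 to 3289, which overlapped those of wild-type aPDL1. Their Rgs2 counts of 3566 to 13072 with a median of 11959.9 lay above those of wild-type aPDL1. In the same samples Dusp1 ran from 2497 to 5143, Nr4a1 from 1095 to 3972 and Fosl2 from 1240 to 4203. Each of these last ranges overlapped that of wild-type aPDL1. What lay behind these levels was not tested. Because the marker mean separated the groups compared, its part in a difference and that of genotype and antibody cannot be told apart.

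**Figure D3:**
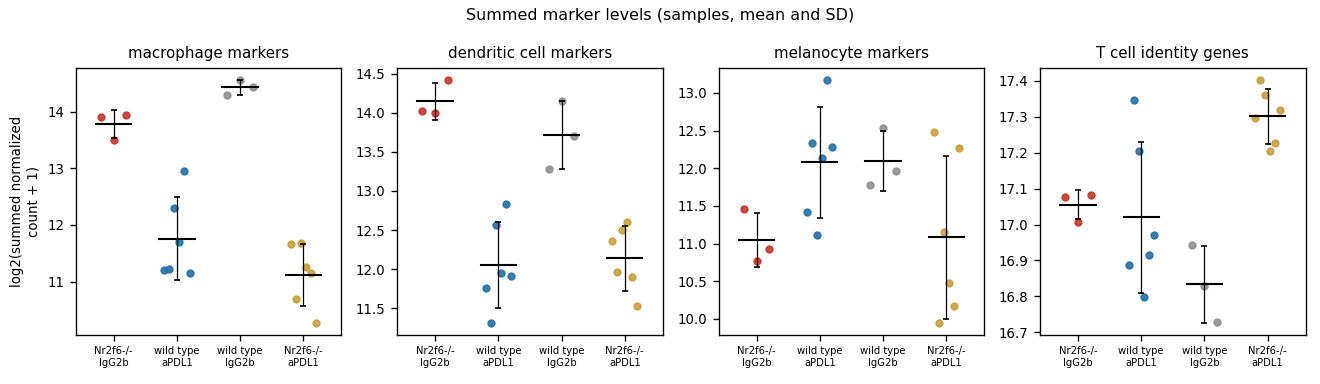
Summed normalized counts of macrophage, dendritic cell, melanocyte and T cell identity genes, as log2(sum + 1) on the vertical axis. Each point is a sample of the 4 groups, with mean and SD in black. The macrophage and dendritic cell sums of the 3 Nr2f6-/- IgG2b samples lie above those of the 6 wild-type aPDL1 samples, whereas the melanocyte and T cell sums overlap. Most of the dendritic cell sum comes from the called class II genes.

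The other higher genes showed smaller differences. Slc3a2, the heavy chain of the CD98 amino acid transporter, had 4089, 5712 and 6023 against 1135 to 3186 with a median of 1940.3 (log2 difference 1.45, SE 0.28, adjusted p = 0.00847), and the amino acid transporter Slc38a2 had 4732, 3841 and 4669 against 1474 to 2696 with a median of 1849.7 (log2 difference 1.20, SE 0.22, adjusted p = 0.00595). Both were higher in every Nr2f6-/- IgG2b sample than in all 15 other samples. The G-protein alpha subunit genes Gnai3 (inhibitory) and Gnas (stimulatory) behaved alike in this respect, with differences of 1.03 (adjusted p = 0.0079) and 0.86 (adjusted p = 0.0104), as did Pnrc1, a coactivator of nuclear receptors, with 1.17 (adjusted p = 0.00453). Hexim1, an inhibitor of transcription elongation, differed by 1.01 (adjusted p = 0.037), and the surface receptor gene Cd48 by 0.89 (adjusted p = 0.0463). Srgn, the proteoglycan core of cytotoxic granules, had 20466, 21800 and 27279.6 against 9740 to 16211 with a median of 12344 (log2 difference 0.92, SE 0.20, adjusted p = 0.0366) and was the 1 gene that limma called among 12 cytotoxic granule genes, whose median difference was −0.28. Sep15, a selenoprotein gene, differed by 1.09 (adjusted p = 0.0485) with overlapping samples.

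Few of the lower genes were called in the first library series alone, which lacks replicates 4 to 6 of wild-type aPDL1 and of Nr2f6-/- aPDL1. All 19 kept their sign there and 2 (Tpm4 and Tmem160) were called, beside 24 of the 36 higher genes. The adjusted p there was 0.0643 for Clgn, 0.0603 for Traj18, 0.215 for Pigo and 0.228 for Fcho1. With all samples and the series as a covariate, limma called 5 lower genes. Whether the smaller number of samples or the series lay behind the lost calls was not tested.

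Of the 19 lower genes, the largest decrease was that of Clgn, which encodes the chaperone calmegin. Its normalized counts were 0, 3.77 and 2.08 in Nr2f6-/- IgG2b samples and 116 to 640.3 with a median of 227 in wild-type aPDL1 (log2 difference −6.57, SE 1.19, adjusted p = 0.00563). All 15 other samples lay above the Nr2f6-/- IgG2b samples, with the lowest Nr2f6-/- aPDL1 sample at 4.34. Clgn lies on chromosome 8, 12 Mb from Nr2f6. The non-coding RNA 4933404O12Rik had 1.90, 7.54 and 14.6 against 41.8 to 347 with a median of 145 (log2 difference −4.18, SE 0.93, adjusted p = 0.037), and Ccdc137 had 5.71, 53.7 and 9.37 against 113 to 462 with a median of 199 (log2 difference −3.79, SE 0.81, adjusted p = 0.0256). Both were again lowest in the Nr2f6-/- IgG2b group.

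Traj18, the J segment of the invariant T cell receptor alpha chain of natural killer T cells, had 55.2, 213 and 121 against 381 to 1272 with a median of 634 (log2 difference −2.62, SE 0.48, adjusted p = 0.00597). It is a short segment within the T cell receptor alpha locus, so the origin of its reads is uncertain. Pigo, an enzyme gene of GPI anchor synthesis, had 13.3, 163 and 14.6 against 194 to 691 with a median of 322 (log2 difference −3.37, SE 0.74, adjusted p = 0.0307), with 1 Nr2f6-/- IgG2b sample near the wild-type range. Pik3ip1, an inhibitor of PI3 kinase, had 25.7, 207 and 74.9 against 164 to 1138 with a median of 483 (log2 difference −2.72, SE 0.64, adjusted p = 0.0463), and its groups overlapped in that same Nr2f6-/- IgG2b replicate 2. Sppl3, an intramembrane protease gene, had 480.4, 661 and 377 against 955 to 2034 with a median of 1135 (log2 difference −1.32, SE 0.29, adjusted p = 0.0294), without overlap.

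Of the lower genes, 5 of 19 lie on chromosome 8, Nr2f6 itself among them, as do 2 of the 36 higher genes (Junb and Tppp3) and 5.32% of the tested genes with a position. Tpm4, which encodes a tropomyosin and starts 0.753 Mb from Nr2f6, had 2949, 4015 and 4038 against 8063 to 10074 with a median of 8832 (log2 difference −1.28, SE 0.21, adjusted p = 0.00173). Its level followed genotype across the series, with wild-type IgG2b at 7987, 6506 and 6878 and Nr2f6-/- aPDL1 at 1895 to 4356 with a median of 2449. Fcho1, an endocytosis gene 0.326 Mb from Nr2f6, had 425, 614 and 194 against 618 to 1956 with a median of 1232 (log2 difference −1.66, SE 0.39, adjusted p = 0.0441). The fifth, Ddx28, a helicase gene 34.6 Mb away, had 420.5, 346 and 822 against 778 to 1977 with a median of 1406 (log2 difference −1.41, SE 0.33, adjusted p = 0.0441) with overlapping samples. Without Nr2f6 itself, 223 tested genes lie within 20 Mb of it, with a median difference of −0.04. Of these, 4 were called, beside 0.459% of all genes tested. They are Tpm4, Fcho1 and Clgn, which were lower, and Junb, which was higher. Whether the chromosome around Nr2f6 differs between the genotypes beyond the deletion was not tested.

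The remaining lower genes differed by a smaller amount and mostly at high levels. Tmem160 differed by −1.24 (adjusted p = 0.03), the cytoskeletal adaptor gene Pstpip1 by −1.07 (adjusted p = 0.028), the histone chaperone gene Nap1l4 by −0.93 (adjusted p = 0.0385) and the tubulin gene Tuba1c by −0.89 (adjusted p = 0.00847). The cargo receptor gene Lman2 differed by −0.89 (adjusted p = 0.0385), the RNA-binding protein gene Nono by −0.88 (adjusted p = 0.0463), the ribosomal stalk gene Rplp1 by −0.84 (adjusted p = 0.0478) and the phosphatase subunit gene Ppp1ca by −0.72 (adjusted p = 0.0485). All 8 were separated without overlap. Rplp1 has near-identical copies in the genome, so the origin of its reads is uncertain. Among the called genes Ppp1ca, Ddx28, Junb, Dusp1, Ccl6, Cd48, Gnas and Nr2f6 overlap another tested gene. How reads within the overlap were counted is not known.

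The samples outside the comparison, which shared in the estimate of spread, show how each gene sits between genotype and antibody. The contrast of Nr2f6-/- aPDL1 with wild-type IgG2b shares no sample with it, keeps the genotypes and exchanges the antibodies, and 74 genes (0.617%) were called there. Of the 55 genes, 11 had the same sign in both contrasts: 4 of the 36 higher genes (Socs3, Gem, Srgn and Cd48) and 7 of the 19 lower genes (Nr2f6, Tpm4, Clgn, Fcho1, 4933404O12Rik, Nap1l4 and Rplp1). Of these, Nr2f6 (−5.43, adjusted p = 0.0428) and Tpm4 (−1.43, adjusted p = 7.66e-04) were called in both, and Gem stood at 0.62 (adjusted p = 0.607). Srgn stood at 0.24 (adjusted p = 0.832), Cd48 at 0.21 (adjusted p = 0.876) and Socs3 at 0.03 (adjusted p = 0.996). Some genes with the opposite sign were as near 0, such as Sep15 (−0.005) and Nono (0.004). The sign of a value near 0 therefore does not place a gene. The other 32 higher genes had the opposite sign, 6 of them called: Dhrs3 (−6.63, adjusted p = 0.0343), Ccl6 (−4.20, adjusted p = 2.43e-05), Lyz2 (−3.61, adjusted p = 3.75e-06), H2-Ab1 (−1.93, adjusted p = 0.0144), H2-Eb1 (−1.89, adjusted p = 0.0092) and Fcer1g (−1.52, adjusted p = 0.0308). These 6 were high under IgG2b and low under aPDL1 in both genotypes. Over all genes tested with a positive difference, 59.5% lay below 0 in the opposite contrast and 45 of 6325 were called lower there. Over those with a negative difference 56.0% lay below 0, against 36.8% of the 19 lower genes. In limma, wild-type aPDL1 against wild-type IgG2b was called for 15 of the 36 higher and 0 of the 19 lower genes. Over all tested genes with a positive or a negative difference these counts were 26 of 6325 and 1 of 5651. Nr2f6-/- IgG2b against wild-type IgG2b was called for 0 of the 36 and 0 of the 19. Nr2f6 stood there at −5.43 (adjusted p = 0.579). Both contrasts share samples with the comparison, so these counts are descriptions.

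In the opposite contrast Rgs2 stood at −0.21 (adjusted p = 0.922), Dusp1 at −0.65 (adjusted p = 0.229), Tnfaip3 at −0.70 (adjusted p = 0.618), Fosl2 at −0.87 (adjusted p = 0.228) and Nr4a1 at −1.21 (adjusted p = 0.0841). Fos stood at −1.96 there and 2.02 in the comparison, and Ier3 at −1.80 and 0.52. The median over the 36 higher genes was 2.09 in the comparison and −0.83 in the opposite contrast, and over the 19 lower genes it was −1.32 and 0.20. Both first medians stayed the same with Gm24497 and Nr2f6 at the bounds given by 3 reads.

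By group means, wild-type IgG2b lay nearer to Nr2f6-/- IgG2b than to wild-type aPDL1 for 30 of the 36 higher genes (83.3%), against 54.8% of the 6325 tested genes with a positive difference. Nr2f6-/- aPDL1 lay nearer to wild-type aPDL1 for 26 of the 36 (72.2%), against 57.6% of those tested genes. Of the 19 lower genes, 17 (89.5%) had wild-type IgG2b nearer to wild-type aPDL1, against 60.8% of the 5651 genes with a negative difference, and 17 had Nr2f6-/- aPDL1 nearer to wild-type aPDL1, against 54.9%. The Nr2f6-/- IgG2b samples lay beyond all 15 other samples for 10 of the higher and 8 of the lower genes, against 0.711% and 0.513% of all tested genes with a positive and a negative difference. The wild-type aPDL1 samples lay beyond all 12 others for 3 higher genes (Rgs2, Gm24497 and Gm24265) and 1 lower gene (Tpm4), against 0.126% and 0.035%. The positions of these groups are descriptions, because the genes were chosen by the levels of the groups between which they lie.

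**Figure D4:**
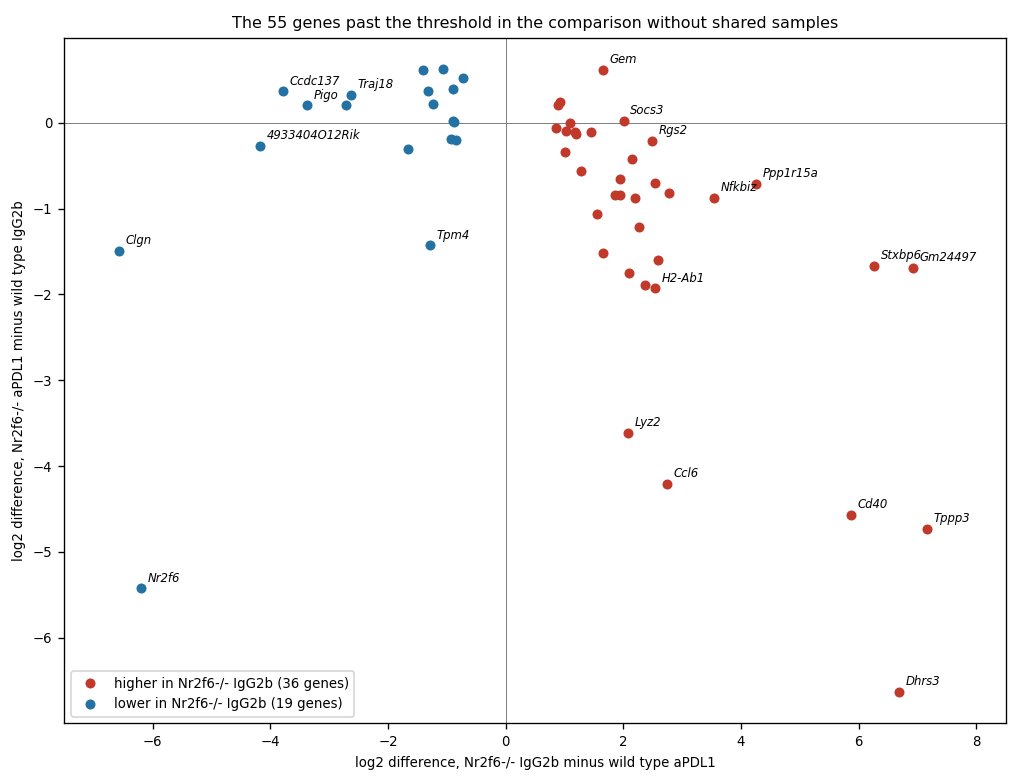
Each point is 1 of the 55 called genes. The horizontal axis gives the log2 difference between Nr2f6-/- IgG2b and wild-type aPDL1, by which genes were called, and the vertical axis that between Nr2f6-/- aPDL1 and wild-type IgG2b, in which the antibodies are exchanged. The higher genes lie mostly below the horizontal line (32 of 36), and Nr2f6, Clgn and Tpm4 are among the 7 lower genes that stay below it.

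Effector cytokine, checkpoint receptor and identity genes of T cells did not pass the test between the groups. Ifng had 3818 ± 173 (SD, n = 3) normalized counts in Nr2f6-/- IgG2b and 3895 ± 799 (SD, n = 6) in wild-type aPDL1, a difference of 0.00 (SE 0.25, adjusted p = 1). Il2 differed by −0.02 (adjusted p = 0.997) and Tnf by 2.40 (adjusted p = 0.431), the latter with 1 wild-type aPDL1 sample at 0. Limma called 0 of the 6 tested effector cytokine genes, with 2 at an unadjusted p under 0.05, and edgeR and DESeq2 also called 0. Gzmb, granzyme B, differed by 0.77 (adjusted p = 0.182) and Prf1, perforin, by −1.59 (adjusted p = 0.14) in limma, whereas DESeq2 called Prf1 lower (−1.73, adjusted p = 0.0202). Prf1 had 285, 237 and 379.9 against 429.6 to 1587 with a median of 1115, with all Nr2f6-/- IgG2b samples below all wild-type aPDL1 samples.

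Of the 11 inhibitory checkpoint receptor genes limma called 0, with 2 at an unadjusted p under 0.05 (Ctla4 higher, Pdcd1 lower), and edgeR and DESeq2 called 0. Pdcd1, which encodes PD-1, differed by −0.45 (adjusted p = 0.382), Ctla4 by 0.86 (adjusted p = 0.345), Havcr2 by −0.42 (adjusted p = 0.512), Lag3 by 0.61 (adjusted p = 0.897) and Tigit by −0.37 (adjusted p = 0.931). Cd274, the gene of PD-L1, had 795, 656 and 367 against 86.3 to 479 with a median of 253 and differed by 1.33 (adjusted p = 0.37). Tcf7, a factor of stem-like T cells, differed by 0.62 (adjusted p = 0.341), and Foxp3, the factor of regulatory T cells, by 0.59 (adjusted p = 0.71). Entpd1, the ectonucleotidase CD39, differed by 0.87 (adjusted p = 0.223) and Tox2 by −0.79 (adjusted p = 0.522). Ccl5 and Ccl4, chemokines of cytotoxic T cells, differed by 0.05 (adjusted p = 0.97) and −0.35 (adjusted p = 0.739), and the proliferation gene Mki67 by 0.74, which did not pass the test either.

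The T cell identity genes lay between −0.62 and 0.54 with a median of −0.05, and limma, edgeR and DESeq2 called 0 of 15 (2 at an unadjusted p under 0.05). Cd4 differed by 0.18 (adjusted p = 0.899), Cd8a by 0.19 (adjusted p = 0.798) and Cd3e by −0.15 (adjusted p = 0.819). Limma and edgeR called 0 of the 20 interferon-induced genes, 0 of the 20 cell cycle genes, 0 of the 20 glycolysis and hypoxia genes, 0 of the 14 heat shock genes and 0 of the 14 genes of death receptors and survival. Members at an unadjusted p under 0.05 numbered 4, 6, 1, 1 and 1, where 11.2% of all genes tested passed. DESeq2 called 1 interferon-induced gene and 1 heat shock gene. Limma called 0 genes among the 4 tested PD-1 ligand and B7 genes, 9 costimulatory receptors, 11 stem-like genes, 10 regulatory T cell genes, 8 NFAT and calcineurin genes, 14 cyclic AMP signaling genes, 7 ectonucleotidase and adenosine genes, 5 CC chemokines of T cells and 11 chemokine receptors. At an unadjusted p under 0.05 they held 1, 0, 3, 2, 1, 2, 2, 1 and 1 genes, edgeR also called 0, and DESeq2 called 1 stem-like and 1 ectonucleotidase gene. The stem-like gene with the smallest adjusted p in limma was Klf2, a factor of quiescent T cells, at 2.21 (adjusted p = 0.0768). Of the 20 glycolysis and hypoxia genes, 15 lay below 0, with a median of −0.45. A p that misses the threshold does not show equal levels, and with these samples the standard errors were 0.25 for Ifng and 0.20 for Pdcd1.

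**Figure D5:**
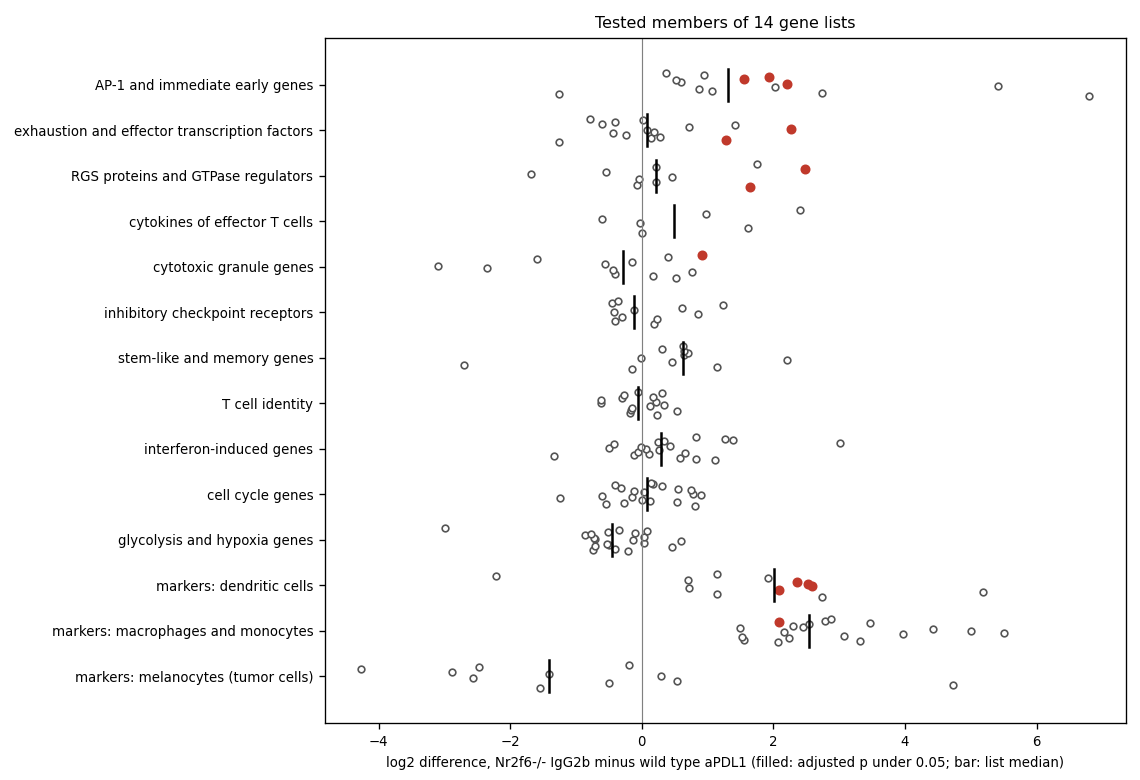
Log2 differences between Nr2f6-/- IgG2b and wild-type aPDL1 (horizontal axis) for the tested members of 14 gene lists (rows). Filled points passed an adjusted p under 0.05, open points did not, and black bars are list medians. Called members lie in the AP-1, exhaustion factor, RGS, cytotoxic granule, dendritic cell and macrophage lists, and all 19 macrophage markers lie above 0.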

How the data were processed

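The authors trimmed reads with Cutadapt and Trimmomatic, discarded those under 22 nucleotides, aligned the rest to mm10 (STAR, then Bowtie2) and counted genes with HTSeq-count. Annotation, strand setting and versions are not given in the sources used here. The deposited signal values are read counts over a sample's size factor (100% were whole reads within 0.001 reads). Groups and replicates came from the sample labels.

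limma (version 3.58.1, R 4.3.3) was fitted to log2(normalized count + 1) of 11992 of 37236 genes (mean 10 or more), in 1 model of 4 group means over 18 samples, with two-sided tests and Benjamini-Hochberg adjustment. Recovered reads were tested with edgeR (4.0.16) and DESeq2 (1.42.0) as alternatives. The procedure was tested on simulated data. Floors are 3 reads and cover counting error only. Named were Nr2f6, all called genes, called list members and a fixed set of T cell genes; other list members named were chosen after their values were seen. Members and lists were chosen with earlier results of these data known. Positions are from GENCODE M21 (GRCm38), start site sequences from RefSeq (GRCm38.p6).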

Additional observations from a re-analysis of the deposited data

Results flagged for a closer look

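Single samples far from the rest of their group were searched among the 6 wild-type aPDL1 samples, for the genes named and the marker sums. Of 87 items, 6 (6.90%) had a sample whose gap to its neighbor as a share of the range exceeded Dixon's 95% critical value on the log2 scale, where chance gives about 1 in 20. Tppp3 had 6.27 normalized counts in replicate 3 and 0 in the others. Dhrs3 had 37 in replicate 5. Stxbp6 had 16.3 in replicate 2 and 0 in the others. Gm24265 had 266 in replicate 2. Snord118 had 64 in replicate 4, the lowest of the group, and Tnf had 0 in replicate 2, also the lowest. The erythroid marker sum, with 10834 in replicate 5, was not past the critical value on this scale.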

How the results depend on the processing

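All 55 called genes kept their sign in every alternative in which they were tested, and no named gene reversed. The number called was 28 without a filter on low values (21 higher, 7 lower, 5 on the same side in the opposite contrast), 22 with the compared groups fitted alone (15 higher, 7 lower), 36 in the first library series alone (5 lower), 25 with the series as a covariate (20 higher, 5 lower, 6 on the same side) and 281 with DESeq2 (112 higher, 169 lower, 98 on the same side), which held 53 of the 55. edgeR called 46, 11 of them lower. Of the called genes, 65.5% were higher with limma, 76.1% with edgeR and 39.9% with DESeq2. The macrophage covariate left 0 higher, 0 lower and 0 on the same side. Pseudocounts of 0.5 or 10, a minimum mean of 50, quantile normalization, sample weights and equal totals gave 43 to 77. The Nr2f6 difference was −6.19 without a filter (adjusted p = 0.0582) and with compared groups alone (0.0821), −6.23 in the first series (0.0745), −6.21 with the series covariate (0.0646), −9.57 in edgeR (0.130) and −5.79 with the macrophage covariate (0.642), none past the threshold.

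Leaving out 1 replicate of either group gave 20 to 55 called genes, 15 to 35 higher, 5 to 25 lower and 3 to 12 on the same side, and an Nr2f6 difference of −6.48 to −5.90. The replicate numbers did not pair the samples: same-numbered samples of the compared groups had correlations of their deviations between −0.007 and 0.004. With a replicate block 16 genes were called (14 higher, 2 lower, 1 on the same side) and Nr2f6 stood at −6.21 (adjusted p = 0.122). The cause of these shifts was not tested. Nfkbiz, Tnfaip3, Rgs2, H2-Eb1, Nr4a1, Fosl2, Dusp1 and Tpm4 were called under 22 of 23 alternatives, the exception being the macrophage covariate. Stxbp6 and Cd40 were called under 4 of 22, Dhrs3 under 5 of 23, Tppp3 under 8 of 23 and Gm24497 under 19 of 23.

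The count fell by more than 1.5 times without Nr2f6-/- IgG2b replicate 1 (20 called), 2 (24) or 3 (27) and without wild-type aPDL1 replicate 2 (33) or 6 (36). Further limits are the 3 samples of the Nr2f6-/- IgG2b group and the joint difference in genotype, antibody and, for wild-type aPDL1 replicates 4 to 6, library series. Fold changes of genes near 0 depend on the pseudocount.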
